A study of Homo sapiens with 6 samples.

Results

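The 10 genes of bone morphogenetic protein (BMP) signalling described here were measured in LNCaP cells sorted by aldehyde dehydrogenase (ALDH) activity: the ligand gene BMP5, the receptor genes BMPR1A, BMPR1B and BMPR2, the SMAD genes SMAD1, SMAD5 and SMAD6, and the target genes ID1, ID2 and ID3. They were found by gene name, and all 10 members were among the 16000 genes of the deposited table. BMP5 was chosen by its large spread of normalized reads between the 6 libraries, so its levels are a description and carry no test here. The other members were taken as genes of the same pathway.

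LNCaP is an established human prostate cancer line that responds to androgen. Cells had been stained with ALDEFLUOR, a fluorescent ALDH substrate. The brightest 10% form the group ALDH high and the dimmest 10% the group ALDH low, each with 3 poly(A) RNA libraries of cells grown in RPMI-1640 with 10% serum, with no treatment named in the labels. The question posed by the design is which genes differ between the sorted fractions. The fractions come from 1 cell line, and no label states that the samples of a group were sorted separately, so the p-values measure the spread between these samples, which may be technical.

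BMP ligands are secreted dimers that bring type I and type II receptor kinases together on the cell surface. The type II receptor activates the type I receptor, which phosphorylates SMAD1, SMAD5 and SMAD9, and these enter the nucleus with SMAD4. Their best known targets are the ID genes, whose products bind E proteins and keep them from DNA, and SMAD6, whose product feeds back to dampen the pathway. BMPs were first known for inducing bone, and prostate cancer often spreads to bone.

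The promoter of BMP5 is shown first because the level of this gene set the libraries apart, with those of ID1 and BAMBI as examples of target gene promoters with more G and C (64.2% and 83.1% of the stretches shown, against 35.6%). The sequences are RefSeq's for GRCh38.p14, read on the strand of the gene, with the bases counted back from the start of the transcript. Capitals mark matches, on either strand, to 3 motifs. The first is GGCGCC, a sequence of high GC content that SMAD proteins of the BMP branch bind. The second is CAGAC, known as a SMAD-binding element. The third is TATAAA, the letters of a TATA box. BMP5 lies at chr6:55875591-55875840 (minus strand, bases −250 to −1), ID1 at chr20:31605159-31605278 (plus strand, bases −130 to −11) and BAMBI at chr10:28677271-28677341 (plus strand, bases −250 to −180).
BMP5: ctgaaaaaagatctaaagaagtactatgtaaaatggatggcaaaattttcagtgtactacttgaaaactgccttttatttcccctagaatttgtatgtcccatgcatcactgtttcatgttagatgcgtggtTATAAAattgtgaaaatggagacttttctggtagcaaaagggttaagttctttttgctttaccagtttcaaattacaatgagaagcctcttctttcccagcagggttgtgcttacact
ID1: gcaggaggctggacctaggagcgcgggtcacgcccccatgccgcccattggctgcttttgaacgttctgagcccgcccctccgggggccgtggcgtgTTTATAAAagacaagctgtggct
BAMBI: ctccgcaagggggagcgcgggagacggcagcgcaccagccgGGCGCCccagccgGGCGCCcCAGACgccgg
The 250 bases before the BMP5 start had a GC content of 35.6%, and 6.19% of 35114 RefSeq promoters had a lower one in that window. It held 1 match to TATAAA, at base −118, no match to the sequence GGCGCC, none to the SMAD-binding CAGAC, and none to the E-box CANNTG. The ID1 stretch held 2 overlapping matches to TATAAA, at −33 and −31, the first of them on the other strand. The BAMBI stretch held GGCGCC at −209 and −196 and CAGAC at −189. Over whole 250-base windows the GC content was 66.0% for ID1 and 81.2% for BAMBI, which held 3 matches to GGCGCC and 2 to CAGAC. The window of MSX2, another target gene, held 0 of either motif, at 55.6% against a median of 58% for all promoters. Among the 250-base windows of all promoters, GGCGCC was in 16.4%, CAGAC in 38%, TATAAA in 10.7% and CANNTG in 61.8%. Among the 10 members, 1 held GGCGCC (BMPR2), 2 held CAGAC (BMPR2 and ID3), 3 held TATAAA (BMP5, BMPR1A and ID1) and 6 held CANNTG. A match is a run of letters, and no binding was measured.

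Read totals, spike-in sequences included, ran from 23817310 to 30617873 per library. The libraries did not separate by ALDH group: on the first principal component of the 500 most variable genes, computed without the 10 members, ALDH high 1, ALDH high 3 and ALDH low 2 scored 20.1 to 23.0 and the other 3 libraries −24.0 to −18.5. ALDH high 2 and ALDH low 2 thus each scored with the libraries of the other group, and the remaining 4 libraries separated by label. Whether these 2 libraries were exchanged cannot be told from the labels. Groups are used as labelled, so every difference between them, and every count of 0 calls, rests on these 2 labels, and the members' differences are also given without both libraries. All 7 luminal prostate markers searched were in the table, with a summed level of 171968.5 to 190576 normalized reads per ALDH high library and 171383 to 207899.7 per ALDH low library. Of the markers of other cells, 1 of 3 basal, 2 of 7 fibroblast, 1 of 5 endothelial, 1 of 5 leukocyte, 1 of 5 bone and 1 of 4 neuroendocrine genes were in the table. The bone marker was BGLAP, which encodes osteocalcin, at 10.0 to 23.0 normalized reads among the ALDH high libraries, against 8.66 to 27.9 among the ALDH low ones.

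BMP5, the ligand gene (ENSG00000112175, GRCh38 chromosome 6, 55753645 to 55875564), had 792, 77.6 and 745 normalized reads in libraries 1, 2 and 3 of ALDH high, against 101.4, 758 and 93.2 in libraries 1, 2 and 3 of ALDH low. Values of other genes are given in the same order, ALDH high first. The libraries fell into a high and a low set, with ALDH high 1, ALDH high 3 and ALDH low 2 in the high set, and each ALDH group had libraries in both. The highest library had 10.2 times the level of the lowest. In recovered reads the low set rested on 85 reads in ALDH high 2, 117 in ALDH low 1 and 87 in ALDH low 3. The high set rested on 756 reads in ALDH high 1, 777 in ALDH low 2 and 652 in ALDH high 3.

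The order of BMP5 levels was ALDH high 1, ALDH low 2, ALDH high 3, ALDH low 1, ALDH low 3 and ALDH high 2. Within the high set the exact 95% Poisson intervals of the normalized level, which cover counting error only, overlapped at 736 to 850, 706 to 814 and 689 to 805. Within the low set they overlapped too, at 83.8 to 121 for ALDH low 1, 74.6 to 115 for ALDH low 3 and 61.9 to 95.9 for ALDH high 2. No interval of the low set reached the high set. BMP5 was chosen for its spread over these libraries, so neither these intervals nor the spike-in ratios below test it. In bulk RNA, fewer cells that express a gene and less RNA per cell cannot be told apart. Spike-in RNAs give a technical yardstick: for the 25 averaging 100 normalized reads or more, the median ratio of highest to lowest library was 1.22 and the largest 1.60, once each library's offset was removed.

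Over the 11506 genes averaging 100 normalized reads or more, the median log2 range over the 6 libraries was 0.61, and 9 genes, BMP5 included, had a range of at least that of BMP5 (3.34). Averaged by group, the mean of BMP5 was 538 ± 400 normalized reads for ALDH high (SD, n = 3) against 318 ± 382 for ALDH low (SD, n = 3). The log2 difference, ALDH high minus ALDH low, was 0.89. The SD within either group was larger than the difference of the means, and with 1 library left out the log2 difference ran from 0.32 (without ALDH high 1) to 1.99 (without ALDH high 2). Some markers of other cells were arranged alike or in mirror image: the basal marker KRT14 had 70.2, 215 and 112 normalized reads and then 167, 95.7 and 286, and the endothelial marker VWF 239.8, 417 and 189 and then 386, 235 and 326. Both were lowest in the 3 libraries highest in BMP5. The neuroendocrine marker SYP went the other way, highest in those 3 libraries, at 77.5, 52.9 and 83.4 and then 62.4, 107 and 65.3. The leukocyte marker CD68 (16.4 to 32.0 over the 6 libraries) and BGLAP did not follow the arrangement. The luminal markers KLK2 and HOXB13 also followed it, KLK2 highest and HOXB13 lowest in those 3 libraries, while the other luminal markers did not. Among all genes, those 3 libraries were the 3 highest in 13.6% and the 3 lowest in 12%. The fibroblast markers COL1A1 and PDGFRB did not overlap between the ALDH groups as labelled, with a summed level of 1539 to 1846 normalized reads in ALDH high and 881 to 1519 in ALDH low, and neither passed the test. Groups did not overlap in 6.99% of all genes, the luminal marker TMPRSS2 among them. The part of these markers in the result was not tested.

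**Figure D1:**
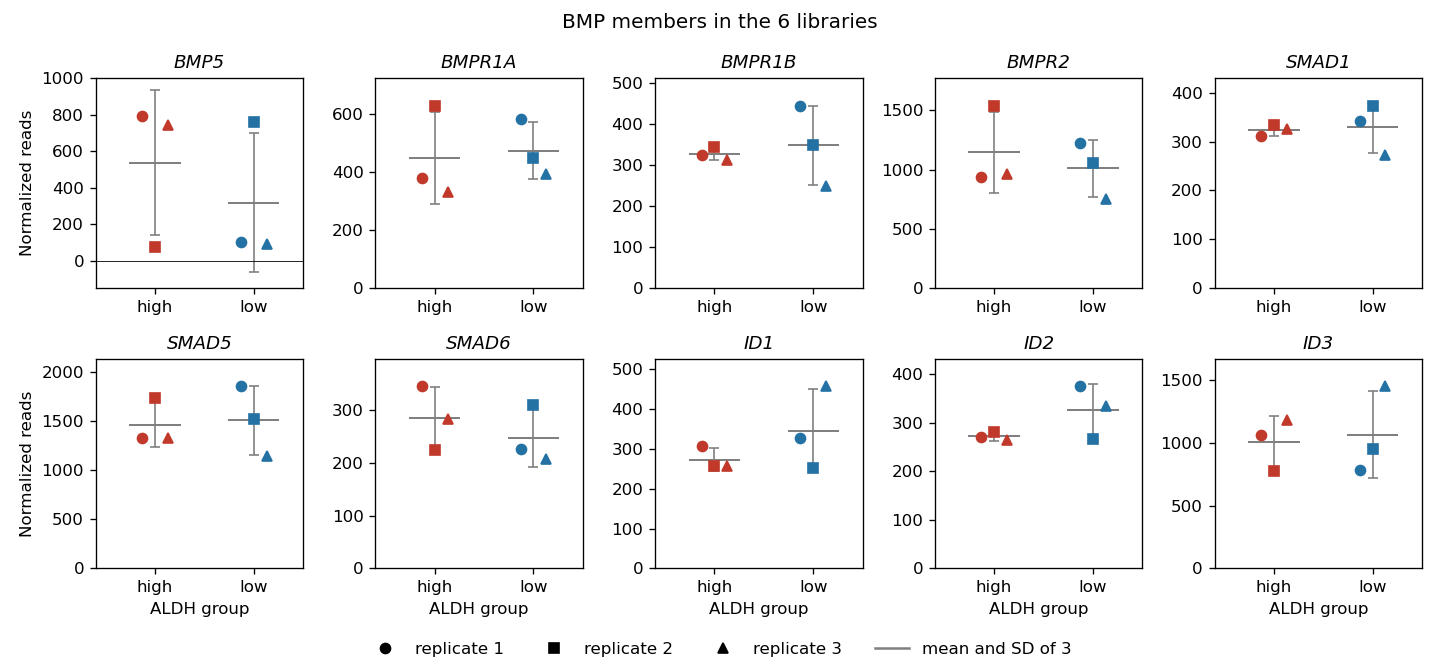
Normalized reads of the 10 members in each library, by ALDH group (ALDH high in red, ALDH low in blue, marker shape for the replicate number, grey line and bar for the mean and SD of 3). BMP5 has a high and a low set of libraries that cross the groups, while the other members differ at most 2.05-fold between any 2 libraries.

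Of 18 further BMP and GDF ligand genes searched, 5 were in the table, 2 with a positive and 3 with a negative log2 difference, at a median of −0.07 and with 0 called. Their highest to lowest ratio over libraries was at most 2.70, against 10.2 for BMP5. BMP6, a ligand of the same subgroup as BMP5, had 329, 166 and 330 normalized reads among the ALDH high libraries, against 185, 342 and 126 among the ALDH low ones. Its 3 highest libraries were those of BMP5. BMP4, a ligand of another subgroup, was low, at 59.7, 41.1 and 49.2 and at 26.0, 58.6 and 42.8 in the same order, again with the same 3 libraries highest. GDF11, a ligand that signals mainly through SMAD2 and SMAD3, had 1547, 2174 and 1332 and then 2190, 1598 and 1656, so that its 3 lowest libraries were those in which BMP5 was highest. GDF15, a stress-induced distant relative that signals through another receptor, had 36512 to 63324 normalized reads, with the highest value in ALDH low 3. Per kilobase of annotated exon its mean was 21314 normalized reads, against 202 for GDF11 and 108 for BMP5.

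The receptor genes were all in the table, and none passed the test between the groups. BMPR1A, a type I receptor gene (chromosome 10, 86756601 to 86932838), had 380, 628 and 331 normalized reads among the ALDH high libraries, against 580, 449 and 391 among the ALDH low ones. ALDH high 2 and ALDH low 1 were its highest libraries, and the groups overlapped. Its log2 difference was −0.12 (95% interval −0.69 to 0.44). Reads shared with its 2 annotated processed pseudogenes, BMPR1AP1 and BMPR1AP2, would be lost in counting of uniquely placed reads.

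BMPR1B, the other type I receptor gene (chromosome 4, 94757968 to 95158448), had 325, 345 and 313 normalized reads among the ALDH high libraries, against 444, 348 and 250 among the ALDH low ones. The ALDH high libraries lay close together, inside the range of ALDH low. Its log2 difference was −0.05 (−0.55 to 0.45). BMPR2, the type II receptor gene (chromosome 2, 202376936 to 202567751), had 938, 1538 and 959 and then 1225, 1057 and 752, with ALDH high 2 highest and ALDH low 3 lowest. Its log2 difference was 0.17 (−0.36 to 0.69). Per kilobase of annotated exon, the mean level over the 6 libraries was 90.6 normalized reads for BMPR2, 53.5 for BMPR1B and 40.3 for BMPR1A.

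Of 11 further receptor and co-receptor genes, 9 were in the table, of which 8 had a positive log2 difference and 1 a negative one. Their median was 0.12 against 0.02 for all genes, and 0 were called. With 1 library left out the median ran from 0.06 (without ALDH low 1) to 0.23 (without ALDH low 2). RGMA, a co-receptor of BMP ligands, had 145, 71.2 and 144 normalized reads among the ALDH high libraries, against 52.0, 162 and 73.9 among the ALDH low ones, so that its 3 highest libraries were those of BMP5. ACVR2A, a type II receptor gene shared with activins, had 168, 308 and 199 and then 234, 240 and 331. AMHR2, the receptor gene for anti-Müllerian hormone, had 171, 164 and 207 and then 119.6, 158 and 239. The groups overlapped in all 3 genes.

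The SMAD genes had log2 ranges over the 6 libraries of 0.46 to 0.74, against 0.83 to 1.03 for the receptors, with no test of that difference. SMAD5 (chromosome 5, 136132845 to 136188747), one of the SMADs that BMP receptors phosphorylate, had 1330.1, 1732 and 1329 normalized reads among the ALDH high libraries, against 1853, 1519 and 1148 among the ALDH low ones. The log2 difference was −0.03 (−0.46 to 0.41). SMAD1 (chromosome 4, 145481194 to 145558079), its close relative, had 312, 335 and 326 and then 342, 374 and 272, a log2 difference of −0.01 (−0.43 to 0.41). With a log2 range of 0.46 SMAD1 was the steadiest member, and 28.0% of genes of at least 100 normalized reads had a smaller range. Per kilobase, SMAD5 had 164 normalized reads and SMAD1 53.9. Antisense genes overlap 6.75% of the exon bases of SMAD5 and 6.21% of those of SMAD1, and their reads cannot be told apart without strand. Neither SMAD5-AS1 nor SMAD1-AS1, the genes concerned, was in the table. ID2-AS1, which was, overlaps 1.72% of the exon bases of ID2.

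SMAD6, the inhibitory SMAD gene (chromosome 15, 66702228 to 66782848), had 346, 225 and 283 normalized reads among the ALDH high libraries, against 227, 310 and 207 among the ALDH low ones. Apart from BMP5 it was the 1 member of 9 whose 3 highest libraries were ALDH high 1, ALDH high 3 and ALDH low 2, an order held by 13.6% of all genes. Its log2 difference was 0.20 (−0.32 to 0.72). Of the other SMADs of this branch, SMAD9, which acts beside SMAD1 and SMAD5, had 874.5, 1215 and 869.9 and then 1010.1, 879 and 636. SMAD4, the common partner, stayed between 890.1 and 1053 normalized reads, and SMAD7, the second inhibitory SMAD, between 194 and 285.

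ID1 and ID3 were highest in ALDH low 3, a library low in BMP5. ID1 (chromosome 20, 31605283 to 31606515) had 307, 256 and 256 normalized reads among the ALDH high libraries, against 327, 252 and 457 among the ALDH low ones. Its log2 difference was −0.30 (−0.82 to 0.22). ID3 (chromosome 1, 23557918 to 23559794) had 1064, 776 and 1181 and then 786, 952 and 1450.3, and its log2 difference was −0.05 (−0.58 to 0.48). Per kilobase ID3 was the most abundant member at 576 normalized reads, followed by ID1 at 251.

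ID2 (chromosome 2, 8678845 to 8684453) had 270.2, 281 and 264 normalized reads among the ALDH high libraries, against 375, 267 and 334 among the ALDH low ones. Its ALDH high libraries spanned 264 to 281, and of the ALDH low libraries only ALDH low 2 lay in that span. The 3 libraries highest in BMP5 were its 3 lowest, as in 12% of all genes. Its log2 difference was −0.25 (−0.67 to 0.18). Of the E protein genes whose products the ID proteins bind, TCF3 had 2819 to 3241 normalized reads, TCF12 333 to 616 and TCF4 53.6 to 89.8.

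Between the groups as labelled, limma on log2(normalized reads + 1) with Benjamini-Hochberg adjustment over all genes called 0 of the 9 members other than BMP5, as it called 0% of all 16000 genes. The adjusted p of the members other than BMP5 was between 0.984 and 0.996. At an unadjusted p under 0.05 it counted 0 of these 9 members and 2.11% of all genes (338), while edgeR on the recovered reads counted 357 and DESeq2 355, with 0 adjusted calls each. The groups overlapped in 10 of 10 members and did not overlap in 6.99% of all genes. With the groups as labelled, the 95% intervals of the 9 members other than BMP5 lay within a log2 difference of −0.82 to 0.72, short of 2-fold either way. These intervals rest on the labels of ALDH high 2 and ALDH low 2, and do not exclude a 2-fold difference if those labels are wrong. Their log2 difference was above 0 in 2 and below 0 in 7, and in 4 and 5 once every library was scaled to the same total. With 1 library left out, 2 to 6 of the 9 were above 0, with 6 above 0 and 3 below without ALDH low 1. With both samples numbered 2 left out, limma called 0.669% of genes and 1 member, BMP5, whose spread over these libraries led to its choice, and nothing is read from that call. Of the other 9 members, 3 then had a log2 difference above 0 and 6 below. SMAD6 lay at 0.53, SMAD1 at 0.06, ID3 at 0.07, BMPR2 at −0.02, BMPR1B at −0.06, SMAD5 at −0.13, ID2 at −0.41, BMPR1A at −0.42 and ID1 at −0.46. The authors' deposited table gives an adjusted p of 0.998 for each of the 10 members.

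**Figure D2:**
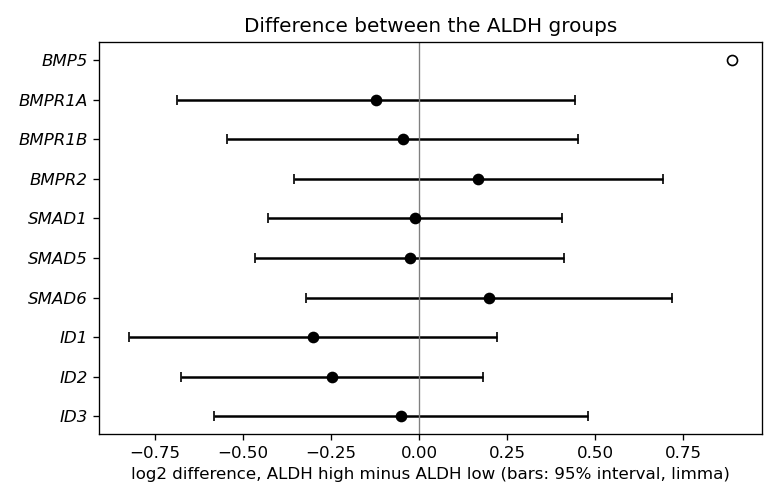
log2 difference of each member, ALDH high minus ALDH low, as labelled, with its 95% interval from limma for the 9 members other than BMP5. All 9 intervals include 0, and BMP5 is an open point at 0.89 without an interval, since its spread led to its choice.

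ALDH low 3 held the lowest value of 5 of the 6 receptor and SMAD genes (BMPR1B, BMPR2, SMAD1, SMAD5 and SMAD6) and the highest of ID1 and ID3. On the log2 scale, relative to the mean of the 6 libraries, it lay at −0.48 in BMPR2, −0.41 in BMPR1B, −0.35 in SMAD5, −0.34 in SMAD6, −0.26 in SMAD1 and −0.20 in BMPR1A. It lay at 0.60 in ID1, 0.52 in ID3 and 0.17 in ID2. The receptor and SMAD genes are long and the ID genes short: annotated exons cover 6058 to 11900 bases in the former and 1233 to 2205 in the latter. How many of all genes were lowest or highest in ALDH low 3 was not counted, so nothing particular to the pathway is read from these extremes.

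Gene length moved with this library among genes at large. In ALDH low 3 the median log2 deviation was 0.27 in the shortest of 4 equal classes of genes by exon length (up to 3249 bases) and −0.25 in the longest (7561 bases and more), over 2874 genes each. In ALDH high 2 the same medians were −0.15 and 0.18, and there BMPR2 lay at 0.55, BMPR1A at 0.49 and SMAD5 at 0.24, with ID3 at −0.38 and ID1 at −0.24. SMAD6, though long, lay at −0.22 in ALDH high 2. In the other 4 libraries the medians of both classes were between −0.05 and 0.06. The part of length in the members' values was not tested. BMP5, with 3952 bases, falls in the class of 3250 to 5099 bases, whose medians ran from −0.03 to 0.06.

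**Figure D3:**
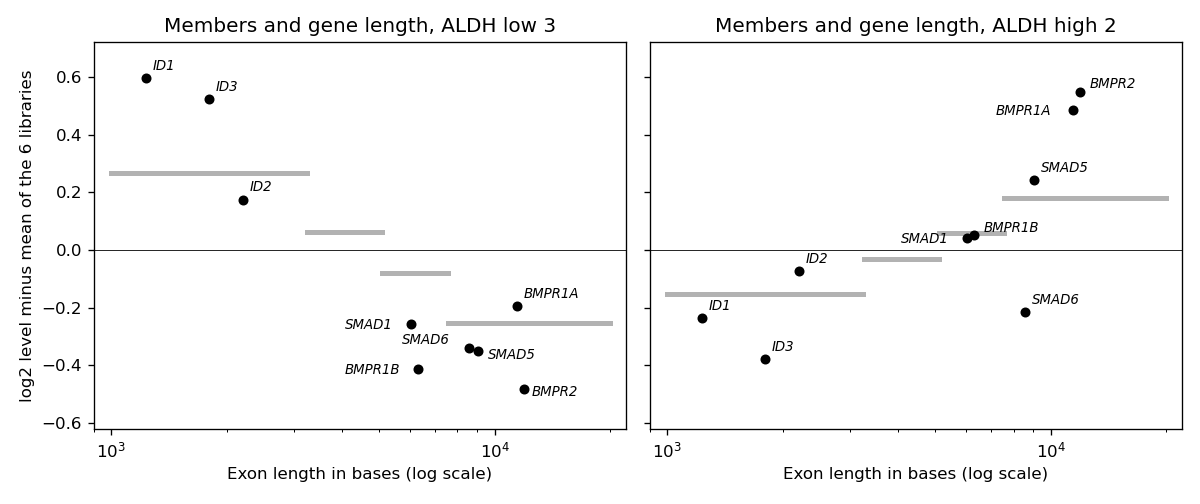
log2 level of 9 members relative to the mean of the 6 libraries, against exon length on a log scale, in ALDH low 3 and ALDH high 2. Grey bars are the medians of the 4 classes of genes by length (outer bars drawn short). In ALDH low 3 the ID genes lie above 0 and the longer receptor and SMAD genes below.

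Other genes that restrain or answer the pathway were taken from lists of known function. Of 18 antagonist genes, 5 were in the table, and of 17 target genes other than the members 13. Their median log2 difference was 0.17 and 0.14, against 0.02 for all genes, and 0 were called in either. The target genes in the table include BAMBI, also among the antagonists, and SMAD7 and SMAD9, also among the other SMADs. BAMBI, a pseudoreceptor that blocks type I receptors and is itself a target, had 1195, 737 and 1376 normalized reads among the ALDH high libraries, against 829, 1106 and 934 among the ALDH low ones. MSX2, a homeobox target of BMPs, had 270.2, 141 and 231 and then 112, 233 and 137. In both genes the 3 highest libraries were those of BMP5, and the groups overlapped. That order held in 3 of the 13 target genes, BAMBI and MSX2 included, and in 13.6% of all genes. Of the 13, 1 (DLX5) had those libraries lowest, as had 12% of all genes.

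HES1, better known as a Notch target, had 342, 215 and 287 normalized reads among the ALDH high libraries, against 177, 286 and 315 among the ALDH low ones. CRIM1, a membrane protein that binds BMPs, had 515, 621 and 552 and then 509, 556 and 327. FSTL3, a secreted binder of activins and some BMPs, had 481, 338 and 474 and then 442, 478 and 624. CRIM1 was lowest and FSTL3 highest in ALDH low 3, and the groups overlapped in each of these 3 genes.

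Of 18 intracellular regulators, 17 were in the table, 9 with a positive log2 difference and 8 with a negative one, at a median of 0.001 and with 0 called. The split was 11 and 6 with total-count scaling. USP9X, a deubiquitinase of SMAD4, had 2402, 3370 and 2400 normalized reads among the ALDH high libraries, against 2342, 2363 and 1480 among the ALDH low ones. Its groups did not overlap, as in 6.99% of all genes and in 2 of the 60 genes of the pathway lists, the other being SMAD3. Its log2 difference of 0.42 had an unadjusted limma p of 0.081 and an adjusted p of 0.984. SMURF1, a ubiquitin ligase that targets SMAD1 and SMAD5, had 657, 891 and 607 and then 619, 679 and 515. SKIL, a repressor of SMAD-driven transcription, had 253, 323 and 256 and then 289, 258 and 193.

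In the TGF-beta and activin branch 8 of 16 genes were in the table, with a median log2 difference of 0.07 and 0 called. PMEPA1, a feedback inhibitor of TGF-beta signalling that androgen also induces, had 1707, 3266 and 1880 normalized reads among the ALDH high libraries, against 2808, 1891 and 3268 among the ALDH low ones. Its 3 lowest libraries were those in which BMP5 was highest. LTBP1, which tethers latent TGF-beta to the matrix, had 180, 176 and 235 and then 90.1, 216 and 116, with the same 3 libraries highest as in BMP5. LTBP3, a related binding protein, had 3242 to 5585 normalized reads.

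Over the 60 pathway genes of these lists in the table, members excluded, the 3 libraries highest in BMP5 were the 3 highest in 11 (18.3%) and the 3 lowest in 10 (16.7%). Among all genes the shares were 13.6% and 12%. The 11 were BMP4, BMP6, RGMA, CHRD, BAMBI, TOB1, MSX2, DLX2, INHBB, LTBP1 and TCF4. The 10 were GDF11, PPM1A, TAB1, NEDD4L, CTDSP1, XIAP, DLX5, ACVR1B, SMAD2 and PMEPA1. The shares are a description, since the libraries differ in this way over many genes, and nothing particular to the pathway is read from them.

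The genes whose pattern lay nearest to that of BMP5 were sought in 11496 genes averaging 100 normalized reads or more, by the root mean square difference of log2 levels, centred per gene, over the 6 libraries. Genes among the 6 nearest were QSER1 at 0.31, NR2F1 at 0.33, ADARB2 at 0.35, AC069228.1 at 0.36 and C2orf54 at 0.36. QSER1 had 502, 95.8 and 561 normalized reads among the ALDH high libraries, against 83.2, 608 and 62.1 among the ALDH low ones. NR2F1, an orphan nuclear receptor gene, had 308, 47.4 and 328 and then 63.2, 265 and 53.6. In both genes a high and a low set of libraries crossed the ALDH groups, which follows from the search for likeness to BMP5. By the same measure the members lay at 1.29 (SMAD6) to 1.78 (BMPR1A) from BMP5. A gene of constant level would lie at 1.54, so for members that vary little the measure says little about pattern.

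The nearest mirror images of BMP5 were MAF at 0.21, PLA1A at 0.34 and EPHA7 at 0.35. EPHA7, an ephrin receptor gene, had 103, 768 and 115 normalized reads among the ALDH high libraries, against 751, 82.0 and 453 among the ALDH low ones. PLA1A, a phospholipase gene, had 137, 836 and 157 and then 727, 159 and 886. Of the genes named here for likeness, EPHA7 lies on chromosome 6, far from BMP5, and the others on other chromosomes. The 1 gene of the table within 1000000 bases of BMP5 was DST, a cytoskeletal linker gene 582423 bases away, with 404, 467 and 385 normalized reads among the ALDH high libraries, against 372, 390.5 and 177 among the ALDH low ones. DST did not share the pattern of BMP5.

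**Figure D4:**
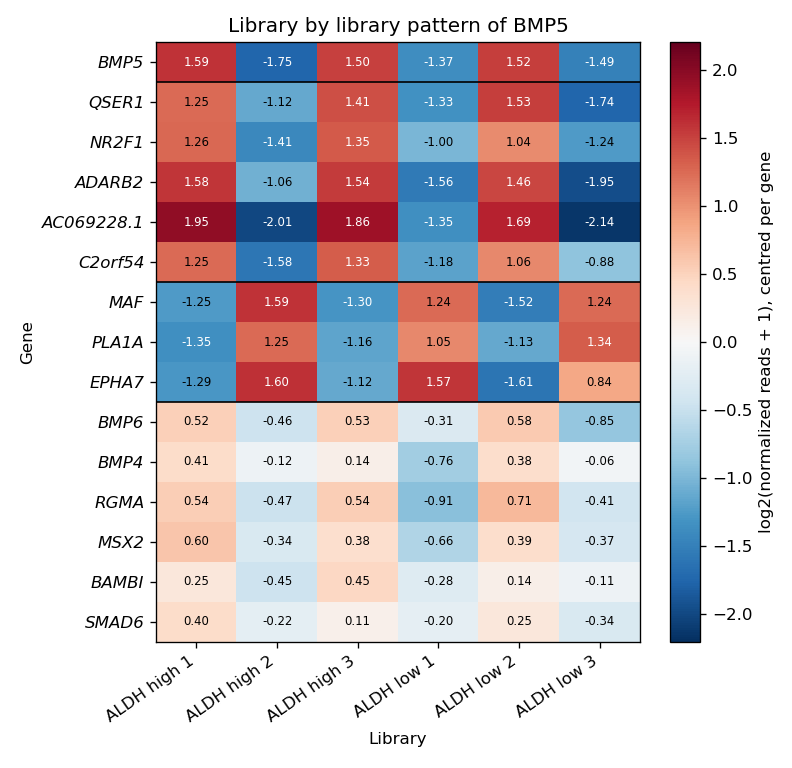
log2(normalized reads + 1) centred per gene, in the 6 libraries, for BMP5, 5 of its 6 nearest genes, its 3 nearest mirror images, 5 pathway genes and SMAD6. The 5 pathway genes and SMAD6 were picked from those with the same 3 highest libraries as BMP5. Of the 10 pathway genes with these libraries lowest, none is drawn. ALDH high 1, ALDH high 3 and ALDH low 2 lie above 0 in BMP5 and below 0 in MAF, PLA1A and EPHA7, and BMP6 follows BMP5 with a smaller amplitude.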

How the data were processed

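RNA of 6 samples was sequenced after poly(A) selection, per the labels. Trimmomatic 0.36, STAR 2.5.2b, featureCounts of Subread 1.5.2, DESeq2 and build GRCh38 are named, per the submitters' processing notes. Unique reads in exons were counted per gene, per the labels' protocols. Annotation release and strand are not given in the sources used here. For each gene and sample the authors deposited a normalized signal, the counted reads over a size factor of the sample, with their log2 fold change (ALDH low over ALDH high), p-value and adjusted p-value. Values were whole multiples of 1 step within 0.02 of a read for at least 99.99% of rows, so whole reads were recovered. A count test was an added alternative on them.

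The table starts at a row mean of 9.65, so a gene outside it was not analysed here. The 46 spike-in rows were left out of tests. GENCODE release 29 gave coordinates and exon lengths (the union of annotated exons) and matched 15939 of 16000 genes. All 10 members matched a RefSeq promoter. Differences were tested with limma 3.58.1 (R 4.3.3) on log2(normalized reads + 1), using its trend of variance with level, no filter, a threshold of 0.05 on the Benjamini-Hochberg adjusted p, and 95% intervals. Fold changes on that scale understate the change of low genes. edgeR 4.0.16 and DESeq2 1.42.0 on the recovered reads were alternatives, beside other settings given in the closing section. Scripts were tested on simulated data. Members and gene lists were chosen with earlier results of these data known. Genes named from a list are, for each, up to 3 with a mean of at least 100 and the largest range over libraries, beside those named for their likeness to BMP5. BMP4, TCF4, the markers of other cells and the genes of the library order count were chosen after their values were seen, and DST by position. Of the 6 genes nearest to BMP5, 1 is not reported here.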

Additional observations from a re-analysis of the deposited data

How the results depend on the processing

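Under limma without a trend, with a pseudocount of 10, with a mean of at least 100 required, with total-count scaling, and with edgeR or DESeq2 on recovered reads, 0 genes, 0 members and 0 pathway list genes were called, and the same held with each library left out in turn (0 to 0). Of 140 alternative values of the members' log2 differences, 121 kept their sign and side of the threshold. Total-count scaling turned SMAD1 to 0.034 and SMAD5 to 0.019. Leaving out 1 library gave −0.39 to 0.065 in BMPR1A, −0.27 to 0.15 in BMPR1B, −0.063 to 0.32 in BMPR2, −0.14 to 0.087 in SMAD1, −0.21 to 0.14 in SMAD5 and −0.24 to 0.20 in ID3, so their direction is not settled. ID1 and ID2 stayed below 0 (−0.51 to −0.078 and −0.38 to −0.14), and SMAD6 above it (0.049 to 0.37). BMP5 ran from 0.32 to 1.99. Its spread over these libraries led to its choice, so no direction is read from that range. Each library left out moved BMP5 by over 1.5 times: it was 1.99 without ALDH high 2, 1.87 without ALDH low 2, 0.43 without ALDH low 1, 0.37 without ALDH low 3, 0.36 without ALDH high 3 and 0.32 without ALDH high 1. The list medians crossed 0 in the same runs for the ligands (−0.21 to 0.06), the other SMADs (−0.01 to 0.08), the antagonists (−0.09 to 0.28), the regulators (−0.07 to 0.11) and the other targets (−0.07 to 0.23), while 7 to 8 of 9 further receptor genes stayed above 0 (median 0.06 to 0.23). Of the 9 members other than BMP5, 2 to 6 were above 0 (median −0.14 to 0.04). An alternative chosen after seeing the data left out ALDH high 2 and ALDH low 2 together. It called 107 genes (0.669%) and 1 member, BMP5, whose pattern had led to its choice; BMPR2 then lay at −0.017, SMAD1 at 0.063 and ID3 at 0.070. With the replicate number as a block 0 genes, members and pathway list genes were called. Nothing in the labels pairs the samples by number. The deviations of same-numbered samples correlated across genes at −0.46, −0.43 and 0.14, and those of different-numbered samples at −0.51 to 0.56. As 1 library of each group scored with the other group, these correlations cannot settle whether samples are paired. At 85 to 117 reads, BMP5 levels in its low libraries carry counting error, with Poisson intervals that overlapped within that set and did not reach the high set.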
